A study of Mus musculus with 6 samples.

Results

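Interferon-stimulated genes are genes whose transcription rises when a cell receives an interferon signal. The 36 genes of this class chosen by name were looked up in the table of 15601 genes measured in liver lymphocytes of mice, and 35 were found, with 1 row each; Oas2 was not analysed here. They fall into 26 type I antiviral members and 9 interferon-induced GTPases, which are described apart. The antiviral members comprise 19 effectors (Isg15, Isg20, Ifit1, Ifit2, Ifit3, Ifit3b, Ifi44, Ifi35, Ifi27l2a, Mx1, Oas1a, Oas3, Oasl1, Oasl2, Rsad2, Bst2, Rtp4, Xaf1 and Cmpk2), 3 sensors (Zbp1, Dhx58 and Ddx58) and 4 regulators (Irf7, Irf9, Stat2 and Usp18). The GTPases are Gbp2, Gbp3, Gbp4, Gbp5 and Gbp7 of the guanylate-binding protein (GBP) family and Igtp, Irgm1, Iigp1 and Ifi47 of the immunity-related GTPase (IRG) family.

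The study compared 3 libraries labelled oil (oil replicates 1 to 3) with 3 labelled tamoxifen treatment (tamoxifen replicates 1 to 3). Tamoxifen is an oestrogen receptor ligand that is also used to activate inducible Cre recombinases, and oil is its usual vehicle. The labels give the tissue as liver and the cells as lymphocytes, while the series design names type 1 innate lymphoid cells (ILC1s) and its title names the nuclear receptor RORα. Strain, genotype, age, sex, dose, duration, any Cre driver and the number of cells or animals behind each library are not stated in the sources used here, so no allele or agent shared by both groups can be stated. Nothing says that the libraries came from separate animals, and the p-values below therefore reflect the scatter among these libraries alone, which could be technical.

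Type I interferons signal through the IFNAR receptor to a complex that holds STAT2 and IRF9 and binds the interferon-stimulated response element (ISRE) in promoters of antiviral genes. Interferon-gamma, which ILC1s and natural killer (NK) cells themselves make, signals through its own receptor to gamma-activated sequences (GAS) in promoters, and it is the classical inducer of the GBP and IRG families. Antiviral effectors act on viral RNA, proteins or budding, whereas the GTPases coat and disrupt the vacuoles of intracellular microbes.

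The promoters of members carried the ISRE core more often than promoters at large. Promoter windows of 250 bases before to 50 bases after the transcription start were taken from RefSeq (assembly GRCm38.p6), which listed 27 of the 35 members. The ISRE core was searched as GAAA, any 2 bases and GAAA again, on both strands, where overlapping matches were each counted. It stood in 16 of 27 members (59.3%), against 3.99% of the 27025 genes with a listed window. The antiviral members held it in 10 of 20 genes (50.0%) and the GTPases in 6 of 7 (85.7%). Cells of every type share this sequence, so the count describes the genes and not these samples. The GAS palindrome, searched as TTCNNNGAA, stood in 8 of 27 members (29.6%) and in 9.55% of all genes.

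Shown here are the 200 bases before the start of members on which the results turn, 5′ to 3′ on the gene's own strand (GRCm38.p6, the same assembly as mm10). Capitals mark matches to the ISRE core or the GAS palindrome, and overlapping matches run together. Isg15, Ifit1, Ifit3 and Ifit3b stand for the antiviral effectors; Ifit3 and Ifit3b show how close that pair of neighbours is. Gbp2, Gbp7, Igtp and Irgm1 stand for the GTPases, and Ifi47 is shown because it was the most abundant member and was the GTPase without a match to the ISRE core.
Isg15 (chr4:156200819-156201018, minus strand): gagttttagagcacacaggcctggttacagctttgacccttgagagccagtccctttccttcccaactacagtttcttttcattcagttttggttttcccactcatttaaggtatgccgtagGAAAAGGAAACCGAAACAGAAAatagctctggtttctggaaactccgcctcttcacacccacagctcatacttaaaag
Ifit1 (chr19:34640689-34640888, plus strand): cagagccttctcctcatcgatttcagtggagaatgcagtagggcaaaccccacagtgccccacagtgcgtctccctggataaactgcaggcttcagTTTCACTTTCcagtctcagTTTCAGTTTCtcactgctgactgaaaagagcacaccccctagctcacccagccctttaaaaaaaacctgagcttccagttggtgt
Ifit3 (chr19:34583329-34583528, plus strand): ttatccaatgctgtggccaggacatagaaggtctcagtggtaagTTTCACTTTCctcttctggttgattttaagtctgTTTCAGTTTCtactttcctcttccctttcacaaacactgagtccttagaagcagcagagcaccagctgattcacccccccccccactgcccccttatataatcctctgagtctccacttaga
Ifit3b (chr19:34607757-34607956, plus strand): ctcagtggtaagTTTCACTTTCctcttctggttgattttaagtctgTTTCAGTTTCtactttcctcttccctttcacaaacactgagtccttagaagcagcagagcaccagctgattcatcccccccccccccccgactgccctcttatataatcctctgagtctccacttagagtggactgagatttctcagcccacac
Gbp2 (chr3:142620463-142620662, plus strand): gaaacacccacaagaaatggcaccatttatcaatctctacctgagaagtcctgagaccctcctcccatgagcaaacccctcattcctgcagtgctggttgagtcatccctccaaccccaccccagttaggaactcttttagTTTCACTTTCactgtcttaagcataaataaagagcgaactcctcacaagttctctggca
Gbp7 (chr3:142530136-142530335, plus strand): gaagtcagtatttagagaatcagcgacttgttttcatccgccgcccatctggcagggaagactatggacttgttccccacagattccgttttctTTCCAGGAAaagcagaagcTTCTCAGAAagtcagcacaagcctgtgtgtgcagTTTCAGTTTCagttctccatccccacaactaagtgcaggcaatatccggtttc
Igtp (chr11:58199356-58199555, plus strand): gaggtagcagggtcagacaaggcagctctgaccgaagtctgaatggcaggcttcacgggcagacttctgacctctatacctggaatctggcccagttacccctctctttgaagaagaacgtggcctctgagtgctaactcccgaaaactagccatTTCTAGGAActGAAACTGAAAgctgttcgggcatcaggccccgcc
Irgm1 (chr11:48871421-48871620, minus strand): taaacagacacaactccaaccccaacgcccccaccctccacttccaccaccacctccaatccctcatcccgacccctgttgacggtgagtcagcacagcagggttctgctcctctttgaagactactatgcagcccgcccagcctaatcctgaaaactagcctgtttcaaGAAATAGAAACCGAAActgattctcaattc
Ifi47 (chr11:49076387-49076586, plus strand): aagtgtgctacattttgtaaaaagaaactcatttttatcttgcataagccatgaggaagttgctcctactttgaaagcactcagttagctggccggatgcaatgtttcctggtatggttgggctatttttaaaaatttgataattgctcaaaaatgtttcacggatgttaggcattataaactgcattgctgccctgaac

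Isg15 had 3 overlapping ISRE cores, which began at -78, -72 and -66 (bases from the start, counted from 0). Ifit1 had matches beginning at -104 and -85 and Ifit3 at -156 and -122. The same stretch in Ifit3b lay at -188 and -154. Of the GTPases shown, Gbp2 had its match at -59, Gbp7 at -53, Igtp at -34, and Irgm1 at -30 and -24. Distance did not divide the classes: the GTPase Gbp5 had its ISRE core at -165, and the antiviral Oas1a had matches at -20 and -14. Gbp7 also had GAS matches at -106 and -87, and Igtp had one at -45 that ended just before its ISRE core. A match describes the letters of the window and is not a measured binding site.

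**Figure D1:**
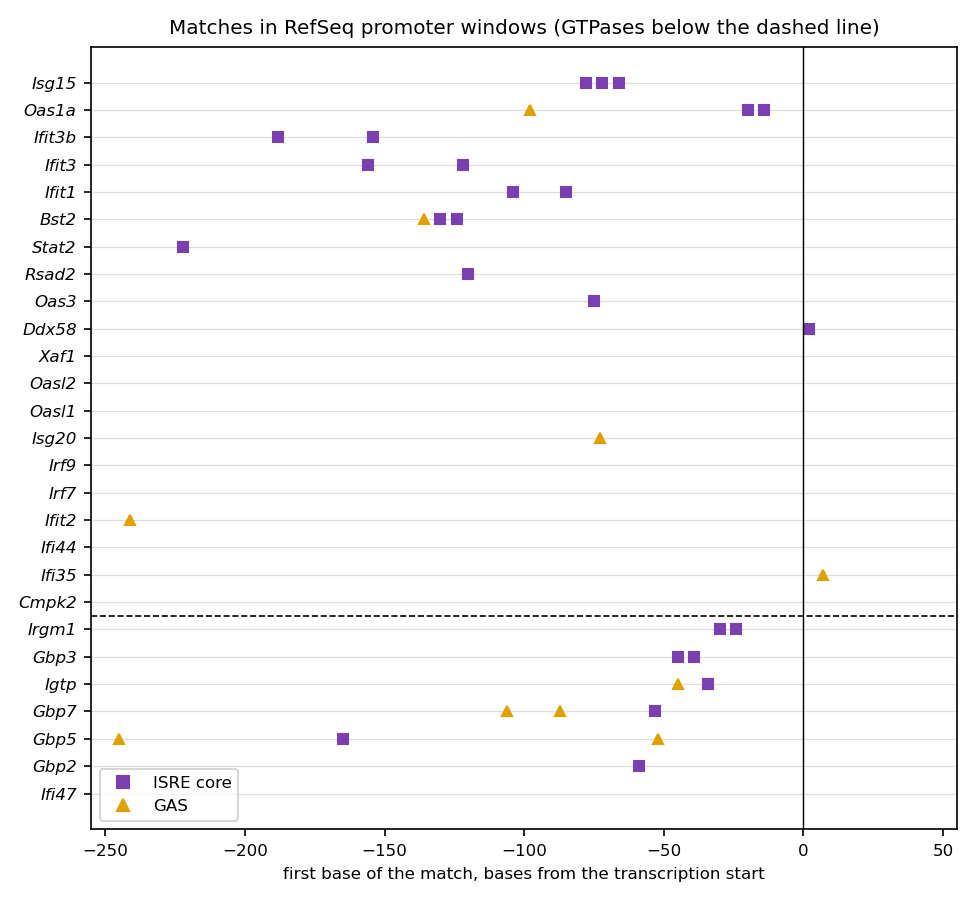
Position of each match to the ISRE core (squares) and the GAS palindrome (triangles) in the promoter windows of the 27 members listed by RefSeq, on a horizontal axis in bases from the transcription start; rows are genes. Of the 7 GTPases, 6 had an ISRE core, and of the 20 antiviral members 10 had one.

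Ifi47, Ifi35, Gbp7, Igtp and Gbp4 had the highest mean FPKM of the members over the 6 libraries. Levels of different genes are compared here as the FPKM values that the authors deposited, which are read counts scaled by a length per gene and by library size. Worked back from counts and FPKM, that length can exceed the exon bases, to an extent that differs between genes. It was 5121 bases for Igtp, with 2022 exon bases, and 6541 for Gbp7, with 5614. The order of the members and their standing among all genes depend on it. Ifi47, an IRG protein, had the highest mean, at 103 ± 10.5 FPKM in oil and 99.8 ± 8.88 in tamoxifen (SD, n = 3), above 95.9% of the genes in the table. Ifi35, an antiviral effector known to bind NMI, followed at 72.4 ± 6.48 and 72.9 ± 6.27 FPKM. Gbp7 stood at 54.0 ± 9.79 and 50.4 ± 6.16 FPKM, Igtp at 36.0 ± 2.10 and 40.4 ± 0.921, and Gbp4 at 41.3 ± 10.5 and 34.3 ± 4.86. Igtp and Gbp4 changed places between the groups. In tamoxifen the mean of Rtp4 stood above that of Gbp4, with overlapping libraries (33.4 to 45.3 and 30.8 to 39.8 FPKM). Rtp4, at 30.3 ± 12.7 and 40.0 ± 6.04 FPKM, and Bst2, at 24.4 ± 0.858 and 19.0 ± 0.974 FPKM, were the next most abundant antiviral members.

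Among the antiviral members, Isg15, Mx1 and Rsad2 stood far below Ifi35, Rtp4 and Bst2. They are named here after their values were seen. Part of the Isg15 transcript, 63.8%, aligns to AC151275.1 at 95.2% identity, so how reads that fit both were counted bears on its level. Isg15, above 49.4% of the genes in the table, stood at 2.07 ± 1.21 FPKM in oil and 2.12 ± 0.535 in tamoxifen, Mx1 at 0.636 ± 0.397 and 1.71 ± 0.934, and Rsad2 at 0.511 ± 0.478 and 0.467 ± 0.373. Irf7, Usp18, Oas1a and Ifit2 lay between, at means of 14.7, 12.9, 12.6 and 7.62 FPKM over the 6 libraries. Ifi44 was the lowest member, at a mean of 0.0368 FPKM over the 6 libraries, above 6.20% of the genes in the table. Of the GTPases, Iigp1 and Gbp5 were the low ones, at means of 0.396 and 0.323 FPKM, while Gbp2, Gbp3 and Irgm1 stood at 14.4, 6.94 and 17.6 FPKM.

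**Figure D2:**
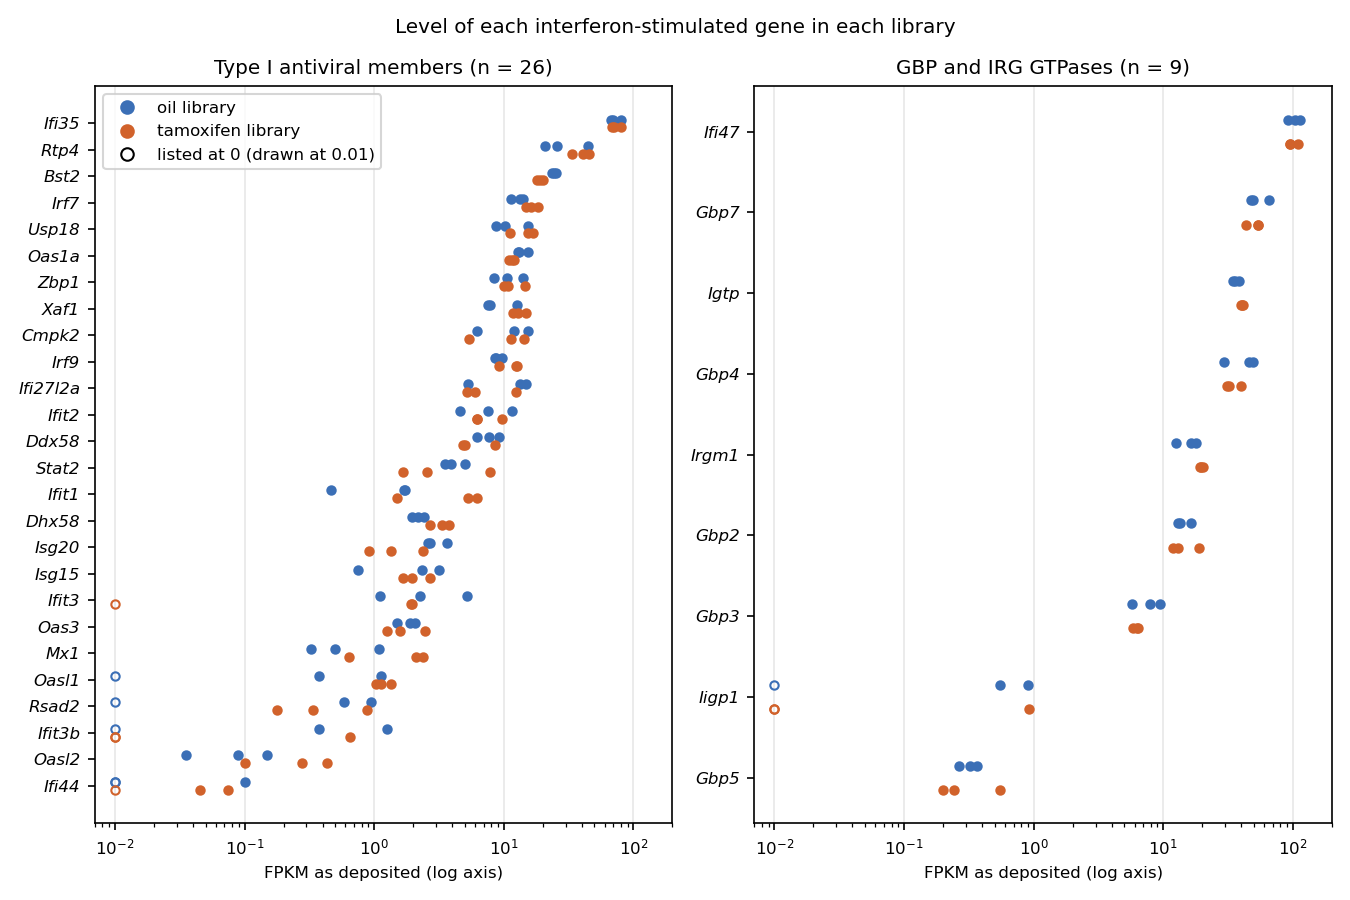
FPKM as deposited (log axis) of each of the 26 antiviral members and 9 GTPases in each library, ordered by their mean; blue points are oil libraries, orange points tamoxifen libraries, and open circles drawn at 0.01 are libraries listed at 0. Ifi47, Gbp7, Igtp and Gbp4 lie at the upper end in all 6 libraries, and most rows show the colours mixed.

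No member passed the test of tamoxifen against oil. From here on, levels of a gene are given as CPM, that is counts scaled with TMM factors to equal library size, and the test is the quasi-likelihood test of edgeR, Benjamini-Hochberg adjusted over 10811 genes, in which a gene passed at an adjusted p under 0.05. Of the 35 members, 30 had enough counts to be tested (22 antiviral members and 8 GTPases). Of these, 0 were called higher or lower (edgeR, adjusted p = 0.999 for each member), where 1 of all 10811 genes was called (0.00925%). At an unadjusted p under 0.05 there were 2 members, Ifit1 and Mx1, both higher in tamoxifen, beside 3.52% of all genes. DESeq2 called 0 members, and 0.167% of all genes. Estimates were split evenly, with 15 members higher and 15 lower in tamoxifen and a median log2 fold change of -0.01, where all genes tested had a median below 0 by less than 0.01. The authors' deposited table gives Ifit1 a p-value of 0.00723 with a q-value of 0.868, and Mx1 a p-value of 0.0311 with a q-value of 1.

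The order of the 6 libraries was also compared. In 5 members every tamoxifen library lay above every oil library, namely Irf7, Irf9, Dhx58, Irgm1 and Igtp, and in 3 every tamoxifen library lay below, namely Isg20, Bst2 and Oas1a. Above and below, the same held for 4.52% and 4.35% of all genes tested, 8.87% in all. The groups of the other 22 members tested overlapped. These orders rest on 3 against 3 libraries, for which an exact permutation test, two-sided, cannot give a p under 0.1.

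**Figure D3:**
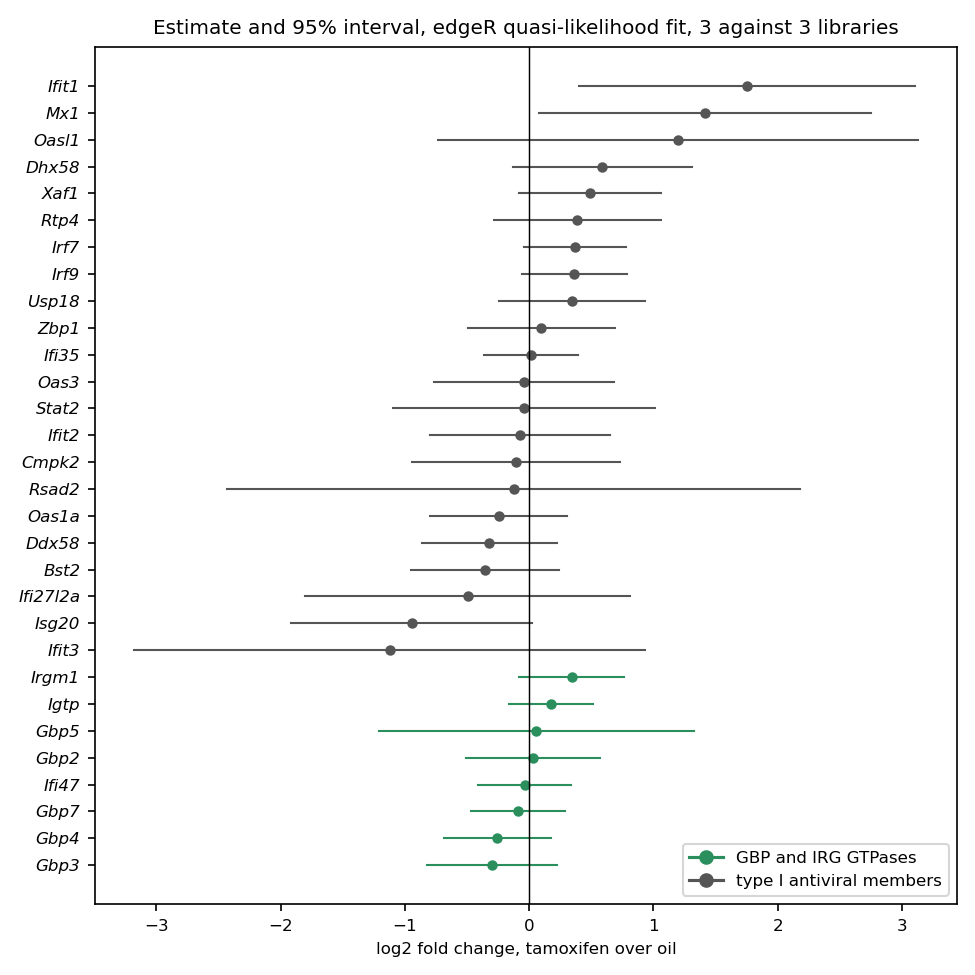
Log2 fold change of tamoxifen over oil (horizontal axis) with its 95% interval from the edgeR quasi-likelihood fit for the 30 members tested, GTPases below the antiviral members. The intervals of Ifit1 and Mx1 lie above 0 before adjustment, and the other 28 include 0.

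Of the regulators, the transcription factor genes Irf7 and Irf9 stood slightly higher in the tamoxifen libraries without passing. Irf7, which encodes the factor that amplifies type I interferon production (chromosome 7, 141262706 to 141266481, minus strand, mm10), stood at 84.7, 87.4 and 75.7 CPM in oil replicates 1 to 3 and at 107, 92.1 and 121 CPM in tamoxifen replicates 1 to 3. Its lowest tamoxifen library, replicate 2, was close to its highest oil library, also replicate 2. The log2 fold change was 0.37 (SE 0.19, 95% interval -0.04 to 0.78). Irf9, which encodes the DNA-binding subunit of the complex with STAT2 (chromosome 14, 55603571 to 55610030, plus strand), was measured at 72.9, 80.3 and 76.3 CPM in oil and at 80.4, 105 and 109 CPM in tamoxifen. Tamoxifen replicate 1 lay level with oil replicate 2, and the other tamoxifen libraries stood above them. The log2 fold change was 0.36 (SE 0.19, 95% interval -0.06 to 0.79).

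Usp18, which encodes the protease that takes ISG15 off its targets and restrains IFNAR signalling, stood at 34.7, 51.3 and 31.1 CPM in oil and at 39.4, 50.9 and 58.7 CPM in tamoxifen. The groups overlapped through oil replicate 2, and the log2 fold change was 0.35 (SE 0.27, 95% interval -0.24 to 0.93). Stat2, the partner of IRF9, was the most uneven regulator: its tamoxifen libraries held both the highest level, 33.9 CPM in replicate 2, and the lowest, 7.62 CPM in replicate 3, while the oil libraries lay between 16.4 and 21.5 CPM. The 4 regulators summed to 209, 241 and 200 CPM in oil and to 238, 282 and 297 CPM in tamoxifen, so oil replicate 2 and tamoxifen replicate 1 overlapped.

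The sensors had estimates in both directions. Dhx58, which encodes LGP2, a regulator of RNA sensing by RIG-I and MDA5 (chromosome 11, 100694884 to 100704271, minus strand), stood at 9.31, 8.21 and 11.1 CPM in oil and at 12.01, 14.1 and 17.0 CPM in tamoxifen. All 3 tamoxifen libraries were higher, with 165 counts in all from oil and 239 from tamoxifen, with a log2 fold change of 0.59 (SE 0.33, 95% interval -0.13 to 1.31). Ddx58, which encodes RIG-I itself, stood at 82.7, 97.1 and 70.7 CPM in oil and at 55.8, 90.9 and 53.7 CPM in tamoxifen. Tamoxifen replicate 2 lay within the oil range and the other 2 tamoxifen libraries below it, with a log2 fold change of -0.32 (SE 0.25, 95% interval -0.87 to 0.22). Zbp1, which encodes a sensor of Z-form nucleic acids that can start necroptosis, ranged from 39.9 to 71.3 CPM in oil and from 49.7 to 72.0 CPM in tamoxifen. The highest library of each group was replicate 3, and the log2 fold change of 0.10 (SE 0.27) turned to -0.08 without oil replicate 1 and to -0.10 without tamoxifen replicate 3.

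Among antiviral effectors, Ifit1 had the smallest p-value. Ifit1, which encodes a protein that holds back translation of viral RNA with an incomplete cap (chromosome 19, 34640871 to 34650009, plus strand), was measured at 4.50, 4.38 and 1.29 CPM in oil and at 4.07, 13.6 and 17.0 CPM in tamoxifen. Tamoxifen replicates 2 and 3 were well above every oil library, and tamoxifen replicate 1 lay within the oil range. With 60 counts in all from oil and 193 from tamoxifen, the log2 fold change was 1.75 (SE 0.61, 95% interval 0.40 to 3.10; unadjusted p = 0.0156, adjusted p = 0.999 by edgeR's quasi-likelihood test). The related Ifit2, at 20.8 to 48.7 CPM in oil and 27.5 to 41.0 in tamoxifen, had a log2 fold change of -0.08 (SE 0.33). Its groups overlapped.

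Ifit3 and Ifit3b could not be separated well. Ifit3 stood at 8.84, 3.83 and 2.03 CPM in oil and at 0, 3.31 and 3.43 CPM in tamoxifen, where a count of 0 allows up to 0.554 CPM in tamoxifen replicate 1 from counting error alone. Oil replicate 1 held most of its counts in oil, and the log2 fold change of -1.12 had an SE of 0.93 (95% interval -3.18 to 0.93). Of the Ifit3 transcript, 97.4% aligns to Ifit3b at 97.8% identity, and how reads that fit both were counted is not stated in the sources used here. Summed over the pair, the counts were 73, 25 and 11 in oil and 0, 20 and 25 in tamoxifen, which overlap.

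Mx1, which encodes a dynamin-like GTPase that blocks influenza virus in the mouse (chromosome 16, 97447035 to 97462907, minus strand), had the second smallest p-value. It stood at 5.58, 1.64 and 2.76 CPM in oil and at 12.8, 10.7 and 3.43 CPM in tamoxifen. Here tamoxifen replicates 1 and 2 were high and replicate 3 lay within the oil range, a different pair of libraries from that of Ifit1. The log2 fold change was 1.41 (SE 0.61, 95% interval 0.08 to 2.75; unadjusted p = 0.0399, adjusted p = 0.999 by edgeR's quasi-likelihood test). Part of the Mx1 transcript, 27.2%, aligns to Mx2 at 94.8% identity; Mx2 itself had 16 counts over the 6 libraries.

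Isg20, Bst2 and Oas1a were the members with every tamoxifen library below every oil library. Isg20, which encodes an exonuclease of single-stranded RNA (chromosome 7, 78913424 to 78920396, plus strand), was measured at 10.1, 9.49 and 14.4 CPM in oil and at 3.51, 4.96 and 9.14 CPM in tamoxifen. Tamoxifen replicate 3 nearly reached oil replicate 2, and the log2 fold change was -0.95 (SE 0.44, 95% interval -1.92 to 0.03). Bst2, which encodes tetherin, the protein that holds budding virions on the cell surface (chromosome 8, 71534264 to 71537437, minus strand), stood at 18.3, 18.6 and 18.8 CPM in oil and at 14.0, 14.7 and 14.9 CPM in tamoxifen. Its libraries were even within each group and the groups lay apart. The log2 fold change was -0.35 (SE 0.27, 95% interval -0.95 to 0.24). Oas1a, a synthetase of the oligoadenylates that activate RNase L, stood at 25.9 ± 3.59 CPM in oil and 21.8 ± 0.626 CPM in tamoxifen. Its transcript aligns over its whole length to Oas1g at 97.6% identity, and Oas1g had 5 counts over the 6 libraries, so how the pair was counted bears on the value.

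Xaf1, Rtp4 and Oasl1 had estimates on the other side. Xaf1, which encodes a pro-apoptotic binder of XIAP, stood at 44.4, 42.2 and 76.3 CPM in oil and at 69.5, 71.9 and 87.4 CPM in tamoxifen, with a log2 fold change of 0.49 (SE 0.26, 95% interval -0.08 to 1.06). Rtp4, a chaperone of receptor transport that also limits viral RNA amplification, stood at 39.4, 31.6 and 73.5 CPM in oil and at 53.8, 68.9 and 66.1 CPM in tamoxifen, with a log2 fold change of 0.39 (SE 0.30, 95% interval -0.28 to 1.06). In both genes oil replicate 3 was high and overlapped the tamoxifen libraries, while oil replicates 1 and 2 lay below all of them. Oasl1, which in the mouse restrains translation of Irf7, stood at 6.20, 0 and 2.21 CPM in oil and at 6.47, 7.27 and 5.90 CPM in tamoxifen. Oil replicate 2 was at 0 and oil replicate 1 near the tamoxifen libraries, and the interval was wide (log2 fold change 1.20, SE 0.88, 95% interval -0.73 to 3.13). The estimate was 2.55 without oil replicate 1 and 0.63 without oil replicate 2.

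Ifi35, the most abundant antiviral effector, had nearly the same values in both groups. It stood at 206, 196 and 251 CPM in oil and at 216, 199 and 246 CPM in tamoxifen, with replicate 3 highest in each. The log2 fold change was 0.02 (SE 0.17, 95% interval -0.36 to 0.40), and its sign turned without oil replicate 1, without oil replicate 2 and without tamoxifen replicate 3 (-0.02, -0.05 and -0.07). Of its exon bases, 16.8% are shared with Gm11626, an antisense model with 62 counts, and whether reads were counted by strand is not stated. The interval leaves room for a fold between 0.779 and 1.32, and the smallest fold that the test could call was not worked out.

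The other antiviral effectors gave no clear direction. Cmpk2, a mitochondrial nucleotide kinase, ranged from 20.8 to 47.3 CPM in oil and from 17.5 to 44.0 CPM in tamoxifen and Ifi27l2a from 2.37 to 7.19 and from 2.31 to 5.91 CPM. Part of the Ifi27l2a transcript, 51.0%, aligns to Ifi27l2b at 90.7% identity. Oas3, another oligoadenylate synthetase, had a log2 fold change of -0.04 (SE 0.33). Rsad2, which encodes viperin, an enzyme that makes a chain-terminating nucleotide, ranged from 0 to 4.79 CPM in oil and from 0.826 to 4.38 CPM in tamoxifen. In all 4 the ranges of the groups overlapped.

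The effectors that were too low to test are given by their counts. Isg15, the ubiquitin-like modifier, had 28 counts summed over oil and 27 summed over tamoxifen, which gives a tamoxifen over oil ratio of 1.00 corrected for depth (95% exact binomial interval, 0.568 to 1.76). Its near copy AC151275.1 bears on these counts too. Oasl2 had 17 and 49 counts, a ratio of 2.99 (1.69 to 5.54), but by library it stood at 0.931, 0.365 and 1.66 CPM in oil and at 1.11, 4.46 and 3.05 CPM in tamoxifen, which overlap. Ifit3b had 20 and 7 counts and Ifi44 had 4 and 5. These intervals cover counting error only: the kit adds no molecular identifiers, so reads after PCR are not independent molecules, and the spread between libraries is not in them.

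**Figure D4:**
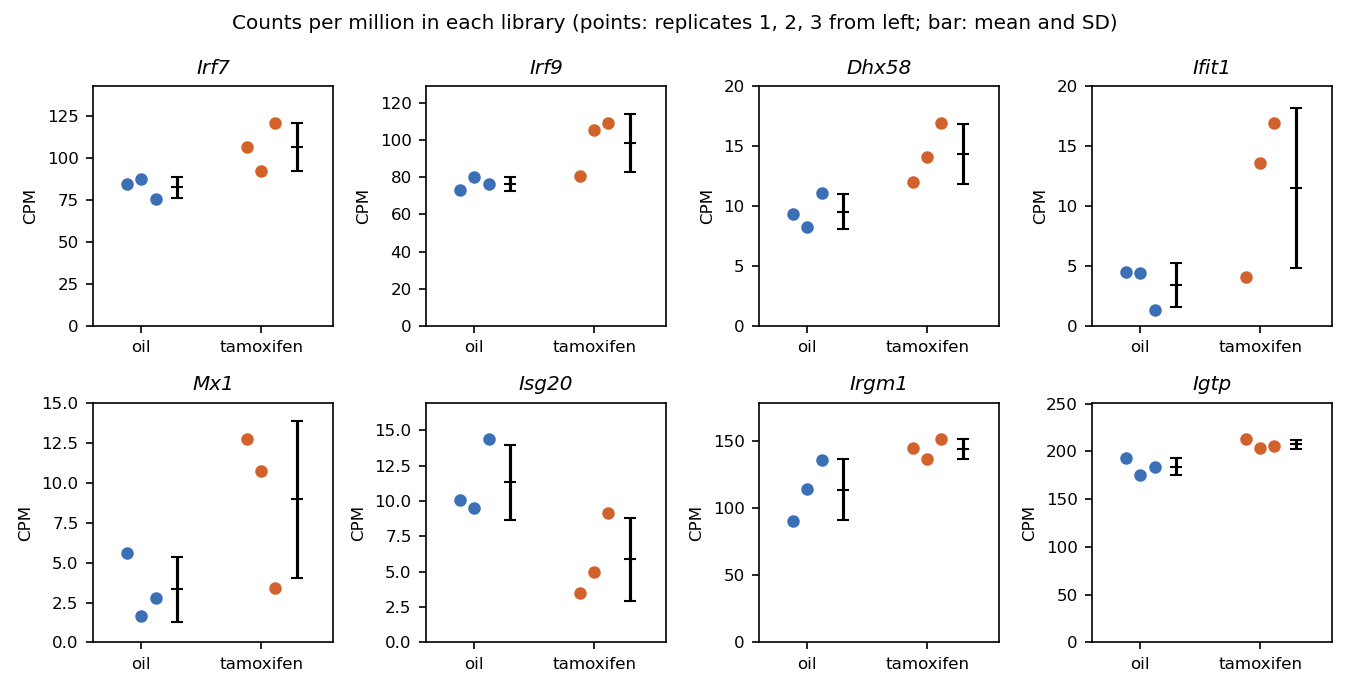
CPM of 8 members in each library, oil in blue and tamoxifen in orange, with points for replicates 1 to 3 from left to right and a bar for the mean and SD of 3 libraries; each vertical axis starts at 0. Irf7, Irf9, Dhx58, Irgm1 and Igtp lie above oil in every tamoxifen library and Isg20 below, while Ifit1 and Mx1 each have 1 tamoxifen library within the oil range.

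The summed level of the GBP and IRG GTPases was close between the groups. It was 1516, 1588 and 1491 CPM in the oil libraries and 1474, 1496 and 1491 CPM in the tamoxifen libraries, that is 1532 ± 50.7 and 1487 ± 11.7 CPM (SD, n = 3). Ifi47, Gbp7, Igtp and Gbp4 made up 85.7% of that sum, to which the low members Gbp5 and Iigp1 added little. Of the 8 tested, 4 had higher and 4 lower estimates and 0 were called (edgeR's quasi-likelihood test, 0.00925% of all genes; 0 at an unadjusted p under 0.05; 0 by DESeq2). In 2 of the 8 every tamoxifen library lay above every oil library, beside 4.52% of all genes.

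Those were the IRG genes Irgm1 and Igtp. Irgm1, which encodes a regulatory IRG protein that keeps effector IRG proteins off the cell's own membranes (chromosome 11, 48861968 to 48871683, minus strand), stood at 90.4, 115 and 136 CPM in oil and at 145, 136 and 151 CPM in tamoxifen. Oil replicate 3 and tamoxifen replicate 2 were nearly level, and the oil libraries were the more scattered. The log2 fold change was 0.34 (SE 0.19, 95% interval -0.08 to 0.76). Igtp, which encodes Irgm3, another regulatory IRG protein (chromosome 11, 58199556 to 58207591, plus strand), was measured at 193, 175 and 184 CPM in oil and at 213, 204 and 206 CPM in tamoxifen. All tamoxifen libraries were higher, and the log2 fold change was 0.18 (SE 0.15, 95% interval -0.16 to 0.51). Exons of Igtp and of Irgm2 on the same strand share 8.01% of the exon bases of Igtp, and Irgm2 itself overlapped between groups (27.9 ± 9.61 and 26.9 ± 3.63 CPM).

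The effector IRG gene Ifi47 lies on chromosome 11 (49076587 to 49096974, plus strand). Its levels were 422, 369 and 492 CPM in oil and 468, 380 and 403 CPM in tamoxifen. The tamoxifen libraries lay within the oil range, with a log2 fold change of -0.04 (SE 0.17, 95% interval -0.41 to 0.34) that turned to 0.07 without oil replicate 3 and to 0.03 without tamoxifen replicate 2. Iigp1, an effector IRG gene that loads onto parasite vacuoles, was too low to test, with 25 counts in all from oil and 16 from tamoxifen. It had counts in 3 libraries and 0 in oil replicate 1 and tamoxifen replicates 2 and 3, where a count of 0 allows up to 0.465, 0.496 and 0.571 CPM.

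Of the GBP genes, which encode large GTPases that attack pathogen vacuoles and bacteria, Gbp7, Gbp4 and Gbp3 had lower estimates. Gbp7, on the plus strand of chromosome 3 (142530342 to 142550149), stood at 315, 412 and 326 CPM in oil and at 289, 342 and 358 CPM in tamoxifen, with a log2 fold change of -0.09 (SE 0.17, 95% interval -0.47 to 0.29) that turned to 0.04 without oil replicate 2. Gbp4 (chromosome 5, 105115767 to 105139586, minus strand) stood at 400, 420 and 273 CPM in oil and at 280, 343 and 293 CPM in tamoxifen, with a log2 fold change of -0.26 (SE 0.19, 95% interval -0.68 to 0.17). Gbp3 stood at 47.0, 55.5 and 36.3 CPM in oil and at 39.0, 34.4 and 39.4 CPM in tamoxifen, with a log2 fold change of -0.30 (SE 0.24, 95% interval -0.82 to 0.23). In both Gbp4 and Gbp3 oil replicates 1 and 2 were the high libraries and oil replicate 3 lay with the tamoxifen libraries. Gbp4 shares 35.9% to 59.3% of its transcript with Gbp6, Gbp8, Gbp9, Gbp10 and Gbp11 at 90.7% to 92.6% identity, so its counts are uncertain. Gbp2, at 36.7 to 45.3 CPM in oil and 34.2 to 51.2 in tamoxifen, and Gbp5, at 3.14 ± 0.404 and 3.27 ± 1.77 CPM, overlapped between the groups.

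The antiviral members as a class summed to 807, 846 and 895 CPM in oil and to 846, 969 and 983 CPM in tamoxifen, that is 849 ± 43.8 and 933 ± 75.5 CPM. The groups overlapped, since tamoxifen replicate 1 lay within the oil range and the other tamoxifen libraries above it. Of the 22 tested, 11 had higher and 11 lower estimates, with a median log2 fold change of -0.01. The median GTPase estimate was below 0 by less than 0.01. Because the members were chosen with results of these data known, no test was made of either sum.

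Libraries differed more for the antiviral members than for the GTPases. The highest library stood above the lowest by a median of 2.20-fold over the 22 antiviral members tested and 1.52-fold over the 8 GTPases, where all genes tested had a median of 1.91-fold; genes with a library at 0, which have no finite ratio, were ranked highest. The ratio passed 2-fold in 10 of the 22 antiviral members, 3 more of which had a library at 0, in 1 of the 8 GTPases, and in 43.4% of all genes. The median SE of the log2 fold change was 0.33 for the antiviral members, 0.19 for the GTPases and 0.29 for all genes. The 26 antiviral members shared 4578 to 5863 counts per library and the 9 GTPases 7830 to 9773, and the part of depth in this contrast was not tested.

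The libraries differed by a length trend over all genes. Gene length here means the length behind the deposited FPKM, worked back from counts and FPKM. It can exceed the exon bases, as for Irf7 (6421 against 3776) and Gbp4 (8901 against 7494). The log2 CPM of all genes tested, relative to their mean over the libraries, had a slope on log2 gene length of 0.040, 0.109 and -0.084 in oil replicates 1 to 3 and of -0.057, 0.052 and -0.061 in tamoxifen replicates 1 to 3. In 7 of the 30 members tested, the 3 libraries with a slope above 0 (oil replicates 1 and 2 and tamoxifen replicate 2) all stood above the other 3, and in 1 of 30 all stood below. Of all genes tested, 15.4% showed each of these orders. The 7 members were Ddx58, Gbp5, Gbp4, Oas3, Stat2, Ifit2 and Cmpk2, with lengths of 3198 bases (Cmpk2) to 10919 bases (Ddx58), and Ifi35 was the 1 with the opposite order. The part of the length trend in the members' differences was not tested; with it as a covariate, Ifi35 and Zbp1 had log2 fold changes of -0.06 and -0.01 and no member was called.

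**Figure D5:**
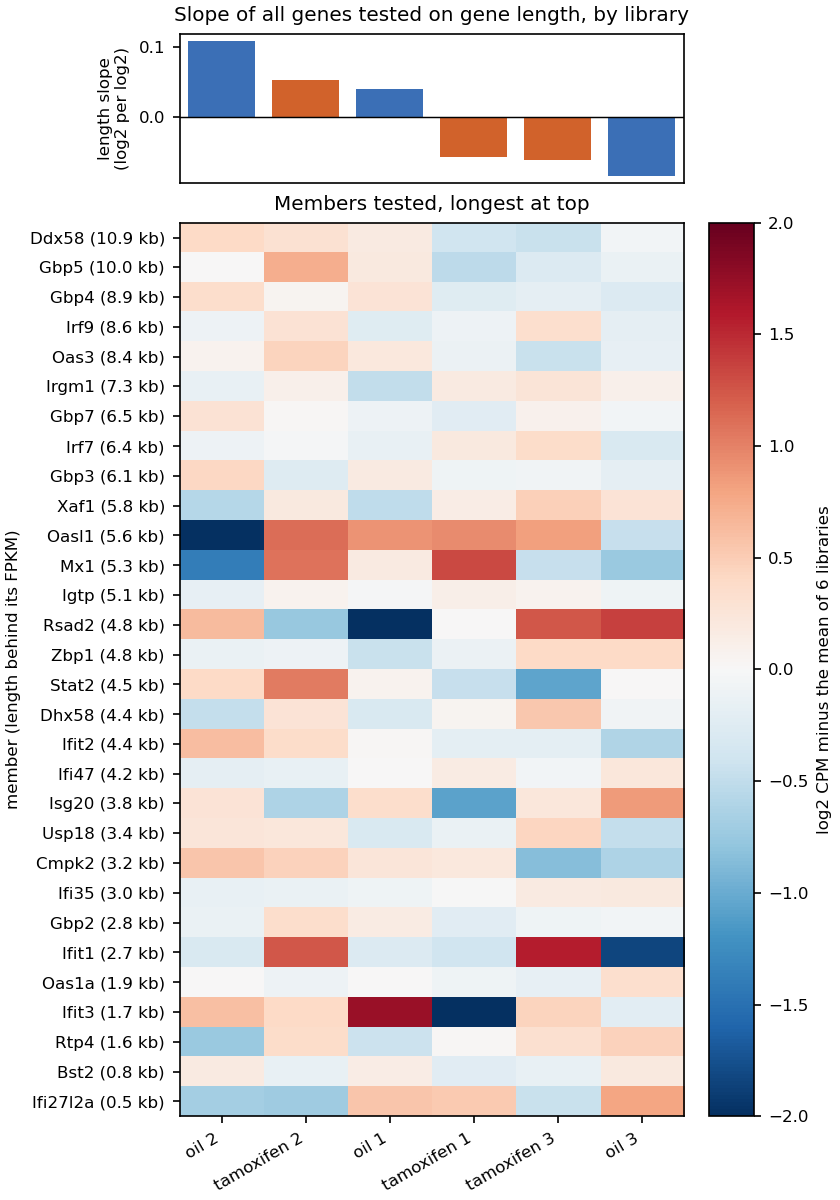
Upper bars give the slope of log2 CPM on log2 length over all genes tested, by library (blue oil, orange tamoxifen). Length is that behind the deposited FPKM, worked back from counts and FPKM. Below, colours give the log2 CPM of each tested member minus its mean over 6 libraries (scale cut at -2 and 2), with members ordered by length and libraries by slope; Ddx58, Gbp5, Gbp4 and Oas3 near the top are redder in the 3 libraries on the left.

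Among the receptors of the pathway that were tested, Ifngr1 stood highest and 0 were called. Ifngr1 had means of 311 FPKM in oil and 371 in tamoxifen, and Ifnar1 of 9.36 and 8.66. Of 4 receptor genes tested, 2 had higher and 2 lower estimates, with a median log2 fold change of 0.005, 0 at an unadjusted p under 0.05 and 0 called by DESeq2. With the length trend as a covariate, 2 of the 4, Ifngr1 and Ifnar2, had an unadjusted p under 0.05, and 0 were called. The 30 members with such a p also rose in that fit, from 2 to 4, and the share of all genes in it is not given here. Ifngr1, the ligand-binding chain of the interferon-gamma receptor, stood at 1315, 1303 and 1251 CPM in oil and at 1597, 1433 and 1619 CPM in tamoxifen. Every tamoxifen library was higher, as in 4.52% of all genes, with a log2 fold change of 0.26 (SE 0.14, 95% interval -0.04 to 0.57; adjusted p = 0.999 by edgeR's quasi-likelihood test). The type I receptor chains stood at 67.6 to 102 CPM in oil and 77.3 to 96.5 in tamoxifen for Ifnar1 (log2 fold change -0.10, SE 0.22) and at 99.7 to 131 and 86.5 to 104 CPM for Ifnar2 (-0.27, SE 0.19). Ifngr2 was not analysed here.

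Of 13 JAK, STAT, IRF and feedback genes, 5 had higher and 8 lower estimates (median log2 fold change -0.15), and 0 were called by edgeR or DESeq2 and 0 had an unadjusted p under 0.05. Without oil replicate 3, 4 of the 13 had an unadjusted p under 0.05, and 0 were called. In that fit 5 of 32 members had such a p, against 2 of 30 with all libraries, and the share of all genes in it is not given here. Tyk2, the kinase bound to IFNAR1, had the smallest p-value, at 85.6, 114 and 49.0 CPM in oil and 49.2, 75.5 and 30.3 CPM in tamoxifen (log2 fold change -0.68, SE 0.36). The groups overlapped, and within each group its libraries followed the order of the length slopes. Irf2, a repressor at ISREs, stood at 72.3 ± 9.48 and 58.7 ± 4.45 CPM (-0.30, SE 0.20). Irf1, an activator of GBP genes, stood at 69.5 ± 6.61 and 88.6 ± 44.3 CPM. Tamoxifen replicate 2 was the high library, at 139 CPM, and the estimate of 0.35 (SE 0.31) turned to -0.13 without it.

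Ifng, the gene of interferon-gamma and the one ligand of the list with a row, was expressed in all libraries. It stood at 247, 211 and 445 CPM in oil and at 301, 242 and 318 CPM in tamoxifen. Oil replicate 3 was the high library, and the log2 fold change of -0.07 (SE 0.26, 95% interval -0.64 to 0.51) turned to 0.32 without it and to 0.04 without tamoxifen replicate 2. The type I and type III ligand genes were not analysed here.

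Upstream of the interferon genes, 11 genes of nucleic acid sensing were tested, of which 6 had higher and 5 lower estimates (median 0.03, log2) and 0 were called by edgeR or DESeq2. Ticam1, the adaptor TRIF of TLR3, was the 1 with an unadjusted p under 0.05, beside 3.52% of all genes. It stood at 10.2, 8.58 and 5.71 CPM in oil and at 14.0, 14.2 and 15.8 CPM in tamoxifen, every tamoxifen library being higher. The log2 fold change was 0.84 (SE 0.35, unadjusted p = 0.0334 and adjusted p = 0.999 by edgeR's quasi-likelihood test). Tlr3 itself had 2 counts in all, in tamoxifen replicate 3. Ifih1, which encodes MDA5, stood at 5.75 ± 3.80 and 8.89 ± 2.21 CPM (0.63, SE 0.51).

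Interferon-stimulated genes outside the 36 were looked at in the same fit. Of 33 tested, 24 had higher and 9 lower estimates, with a median log2 fold change of 0.23, which was 0.15 without tamoxifen replicate 3 and 0.17 without tamoxifen replicate 2. None of the 33 was called by edgeR or DESeq2, and 2, Sp100 and Oas1b, had an unadjusted p under 0.05, beside 3.52% of all genes. Every tamoxifen library lay above every oil library in 4 of them (4.52% of all genes) and below in 0. Sp100, a nuclear body protein gene, stood at 518, 556 and 599 CPM in oil and at 727, 721 and 738 CPM in tamoxifen (log2 fold change 0.39, SE 0.15). Oas1b, known for restricting flaviviruses in mice, stood at 2.17, 1.46 and 2.76 CPM in oil and at 4.25, 6.94 and 4.38 CPM in tamoxifen (1.28, SE 0.54). In both genes the groups did not overlap.

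Of the other GBP and IRG genes, 9 gene models were tested, with Gbp6 counted as 2 models whose estimates had opposite signs (-0.12 and 0.10). They had 6 higher and 3 lower estimates (median log2 fold change 0.07), 0 of them called by edgeR or DESeq2 and 0 with an unadjusted p under 0.05. Gbp9 stood at 34.3, 52.6 and 27.6 CPM in oil and at 50.6, 56.4 and 56.9 CPM in tamoxifen (0.52, SE 0.27), with oil replicate 2 in the tamoxifen range. Irgq, a quasi-GTPase, stood at 3.04 ± 0.594 CPM in oil and at 0, 2.48 and 0 CPM in tamoxifen.

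The cells behind these values carried the ILC1 and NK lineage markers in every library, with Ncr1 between 1120 and 1365 CPM. Of the 9 in the list, 7 had lower estimates in tamoxifen, and 3 had an unadjusted p under 0.05 with every tamoxifen library below every oil library. Of all genes tested, 3.52% had such a p, and 4.35% had every tamoxifen library below. The 3 markers were Cxcr6, a chemokine receptor gene, at 363 ± 144 and 131 ± 23.2 CPM, and the integrin genes Itga1, at 33.1 ± 1.97 and 14.5 ± 4.59 CPM, and Itga2, at 19.6 ± 6.70 and 10.5 ± 3.48 CPM. Their adjusted p-values were 0.385, 0.766 and 0.999 (edgeR). The ILC1 and NK list summed to 9274 ± 1977 CPM in oil and 8592 ± 723 in tamoxifen. Markers of other cell types were present too, with lower sums, which depend on the genes listed. The T cell list summed to 639 ± 139 CPM in oil and 684 ± 137 in tamoxifen. Cd3e, at 22.0 to 45.3 CPM, was a small part of it, and the other genes of that list are not given here. Of its 5 genes tested, 4 had higher and 1 lower estimates in tamoxifen (median log2 fold change 0.20). Of these, 0 were called (edgeR) and 0 had an unadjusted p under 0.05. Single genes were mixed, as the means of Itga1 and Itga2 lay within or below the range of Cd3e. The macrophage and Kupffer cell list summed to 7.74 to 17.1 and 3.24 to 11.4 CPM. Of the markers of plasmacytoid dendritic cells, which make much type I interferon, Ccr9 was at 0 in 5 of 6 libraries, and Irf8, Tcf4 and Bst2, which other lymphocytes also express, carried the sum, of 301 to 497 CPM in oil and 308 to 405 in tamoxifen. The conventional dendritic cell list summed to 206 ± 53.8 CPM in oil and 147 ± 25.3 in tamoxifen, mostly from Itgax, which NK cells also express. Of its 5 genes tested, 3 (Itgax, Xcr1 and Zbtb46) had lower estimates with an unadjusted p under 0.05, beside 3.52% of all genes in either direction. The other 2 had higher estimates, up to a log2 fold change of 0.64. None of the 5 was called (edgeR), and the median log2 fold change was -0.60, while Flt3 was at 0 in 4 of 6 libraries. The B cell list, mostly Ighm, summed to 449 ± 46.4 and 386 ± 17.9 CPM. The hepatocyte list summed to 20.6 to 34.1 CPM in oil and 26.3 to 34.6 in tamoxifen, mostly from Trf and Apoe, while its defining gene Alb had counts in oil replicate 1 and tamoxifen replicate 1 alone, at under 1 CPM. Fewer cells of a type and less RNA per cell cannot be told apart in values of whole libraries, and the part of other cell types in the members' levels was not tested. Library totals were 5289803 to 6325899 counts.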

How the data were processed

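Per the labels' protocols, cDNA of liver lymphocytes was made with the SMARTer Ultra Low kit and amplified by PCR, in 3 oil and 3 tamoxifen libraries. A table of the whole series holds, per the file headers, raw counts and FPKM per gene and library with the authors' p-values and q-values. HISAT2, StringTie and mm10 are listed, per the submitters' processing notes; counter and strand setting are not stated in the sources used here. The deposited counts were tested with edgeR 4.0.16 (R 4.3.3): quasi-likelihood fit, TMM factors, default expression filter by group, group as the only term, all 6 libraries, Benjamini-Hochberg adjustment over 10811 genes, threshold 0.05. The script was tested on simulated data. CPM uses the TMM factors; standard errors come from the F statistic. The deposited FPKM values were used for levels between genes and in limma 3.58.1 alternatives. A count of 0 allows up to 3 counts. Library totals of 5289803 to 6325899 counts set the precision, and intervals on counts cover counting error only.

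The members and lists were chosen with earlier results of these data known. Given in full were, by rule, the members with the smallest p-values in each role (8 effectors, 2 sensors, 2 regulators, 5 GTPases) and the 3 highest by FPKM of each role; of other lists, the 2 genes with the smallest p-values and textbook receptors and factors. Oas1a, Stat2, Cmpk2 and others outside it were named after their values were seen. Of the JAK, STAT, IRF and feedback list, 1 gene is not reported here and was left out of its counts. Shared exons were taken from GENCODE M21 and near copies from blastn 2.17.0 (blocks of at least 100 bases at 90% identity); all 35 members were found there, 29 with identical coordinates. Same-numbered libraries did not deviate together in every pair (correlation of deviations -0.07, 0.27 and 0.16 over genes), so the numbers of the titles were not taken as pairs. Alternatives were DESeq2 1.42.0, limma-voom, scaling by RLE or upper quartiles, no filter, a filter of 10 counts, a replicate block, limma on log2(FPKM + 1) and log2(FPKM + 0.1), leaving out each library, and, added after seeing the data, a length trend per library as a covariate.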

Additional observations from a re-analysis of the deposited data

How the results depend on the processing

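Under all 16 alternative fits 0 members were called, and 1 to 5 had an unadjusted p under 0.05 (edgeR, DESeq2 or limma). The shares of all genes at that p in these fits are not given here. Of the 21 members given in full, 17 kept the direction of their estimate in every alternative. The other 4 had log2 fold changes that turned sign: with the length trend, Ifi35 went to -0.062 and Zbp1 to -0.014, and over the fits without 1 library Ifi35 ranged from -0.067 to 0.12, Zbp1 from -0.10 to 0.35, Gbp7 from -0.16 to 0.043 and Ifi47 from -0.14 to 0.069. Of the other genes, Ifng went to 0.0012 with the replicate block and 0.0020 with limma-voom and ranged from -0.27 to 0.32 without 1 library, Ifnar1 went to 0.049 with the length trend, and Irf1 ranged from -0.13 to 0.58 without 1 library. The count of all genes called, 1 in the fit reported, was 6 with no filter, 11 with the length trend, 18 with DESeq2, and 0 with the replicate block and with limma on either FPKM scale. It was 2, 3 and 4 without oil replicates 1, 2 and 3, and 6 and 0 without tamoxifen replicates 1 and 3, a range of 0 to 6. The GTPases had a mean group difference in log2 CPM of -0.11 when each of the 9 members weighed the same, in place of a log2 ratio of -0.043 for their summed level, and of -0.016 without Iigp1, which had too few counts to test (added after seeing the data). The median log2 fold change of the receptors was 0.085 with the length trend and -0.052 to 0.075 without 1 library; that of the sensors was -0.10 to 0.35 and that of the interferon-stimulated genes outside the 36 was 0.15 to 0.27 without 1 library. Other scalings moved the median of all genes by less than 0.02. With the replicate block 0 members were called, as in the fit reported. Whether same-numbered libraries share more than a number is not stated in the sources used here. Per the file headers, replicates 2 and 3 of the titles carry other numbers, the same ones in both groups. Isg15, Ifit3b, Ifi44, Oasl2 and Iigp1 were too low for the main test, and depth limits what can be said of them.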
